A study of Mus musculus with 18 samples.

Results

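Serotonin acts on sensory neurons through a family of receptors, and 10 of their genes were followed here in the dorsal root ganglia (DRG) of mice with a fractured tibia. The genes were *Htr3a*, *Htr3b*, *Htr1a*, *Htr1b*, *Htr1d*, *Htr1f*, *Htr2b*, *Htr4*, *Htr5a* and *Htr7*, and all 10 were found by symbol among the 36737 genes of the table. The family was selected on the counts of *Htr3a*, which stood at place 9 of 20562 tested genes by p-value between fracture mice given Protectin DX (PDX) and fracture mice given vehicle, and the other members were chosen by their family name. The values of *Htr3a* in the 3 comparisons between groups are therefore given as a description without a p-value, and the question was whether other receptor genes moved with it.

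L3–L5 DRG came from adult mice of the outbred CD1 stock, which had had sham surgery, a tibial fracture treated with vehicle, or a tibial fracture treated with PDX, a lipid mediator of the resolution of inflammation. There were 3 males and 3 females in each group, 18 mice in all, and each mouse gave 1 poly(A)-selected library. Both fracture groups were sampled on day 3. The day of the sham group and the dose and route of PDX in these mice are not given in the sources used here. The labels name no transgene or deletion. Counts on genes summed to 63235040 to 82824942 per library, and the sex-linked genes matched the labelled sex in 18 of 18 libraries. The markers of sensory neurons were present throughout: the mean log2 CPM (counts scaled to the effective size of each library) of 12 pan-neuronal genes lay between 8.80 and 8.89 in sham, between 8.92 and 9.01 in fracture and between 8.93 and 9.01 in PDX mice. Genes of the placenta, which are not markers of DRG, were also counted in every library of both sexes. Their mean log2 CPM over 8 genes lay between 3.69 and 5.32 in sham, between 1.02 and 4.15 in fracture and between 0.85 and 3.36 in PDX mice.

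Serotonin reaches peripheral nerve endings from platelets and, in rodents, mast cells, and it excites or sensitizes nociceptors after tissue injury. *Htr3a* and *Htr3b* encode subunits of a cation channel that serotonin opens directly. The A subunit can form a channel alone, while the B subunit needs the A subunit. All other members encode receptors coupled to G proteins. *Htr1a*, *Htr1b*, *Htr1d* and *Htr1f* act through the inhibitory Gi/o class, and the receptors of *Htr1b*, *Htr1d* and *Htr1f* are the targets of antimigraine drugs. *Htr2b* acts through Gq, *Htr4* and *Htr7* raise cAMP through Gs, and *Htr5a* is coupled to Gi/o.

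Receptors of one family can resemble each other enough for reads to be shared, so the sequences were compared first. The coding sequences came from GENCODE M21 (GRCm38, the same assembly as mm10). *Htr3a* and *Htr3b* are neighbours on the minus strand of chromosome 9, with 23908 bases between them, and their coding sequences of 1470 and 1314 bases were identical at 874 of 1292 aligned bases (67.6%). *Htr1b* on chromosome 9 and *Htr1d* on chromosome 4, with coding sequences of 1161 and 1125 bases, were identical at 765 of 1108 aligned bases (69.0%). The windows of 60 bases in which each of these pairs is most alike are shown, 5′ to 3′ on the coding strand, because a read would be misplaced there first. The capitals mark bases that differ from the partner gene.
Htr3a, exon 7, chr9:48900999-48901058, minus strand: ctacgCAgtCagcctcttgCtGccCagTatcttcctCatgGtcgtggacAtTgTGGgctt
Htr3b, exon 7, chr9:48937174-48937233, minus strand: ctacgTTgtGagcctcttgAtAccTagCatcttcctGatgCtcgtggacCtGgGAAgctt
Htr1b, exon 2, chr9:81632109-81632168, minus strand: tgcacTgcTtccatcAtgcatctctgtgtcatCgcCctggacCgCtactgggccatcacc
Htr1d, exon 3, chr4:136442816-136442875, plus strand: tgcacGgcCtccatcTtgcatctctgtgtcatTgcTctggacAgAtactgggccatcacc
The channel genes differed at 14 bases of their window and the G protein-coupled pair at 7. Over all 45 pairs of the 10 genes, no pair of annotated transcripts shared a run of 31 bases, and the longest shared run was 20 bases, between *Htr1b* and *Htr1d*. Genes on the opposite strand overlap *Htr3a* (*Gm32335*, between 0 and 2 counts per library), *Htr1b* (*D430036J16Rik*, between 0 and 131 counts) and *Htr2b* (*Psmd1*, between 13732 and 17629 counts). The libraries were strand-specific, but whether strand was used in counting is not given in the sources used here, so the low counts of *Htr2b* are uncertain.

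The channel gene *Htr3a* dominated the family. Levels were compared in the authors' FPKM values, which are scaled by transcript length and by the mapped fragments of the library. *Htr3a* had 50.5 ± 7.69 FPKM (SD, n = 18) and made up 62.2% of the summed level of the 10 genes, and it lay above every other member in 18 of 18 libraries. The next level was that of *Htr1d* with 8.27 ± 0.730 FPKM. It was followed by *Htr3b* with 5.81 ± 1.35, *Htr7* with 5.13 ± 0.511 and *Htr1b* with 4.89 ± 0.536 FPKM. *Htr1a* had 2.38 ± 0.400 FPKM and *Htr4* had 2.14 ± 0.478 FPKM. *Htr1f* (0.992 ± 0.196 FPKM) and *Htr5a* (0.954 ± 0.158 FPKM) lay lower still, and *Htr2b* was near the limit of detection with 0.0967 ± 0.0671 FPKM and between 5 and 47 counts per library.

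Neighbours in this order had separate ranges at 3 places. The ranges of *Htr3a* and *Htr1d*, of *Htr1b* and *Htr1a*, and of *Htr5a* and *Htr2b* did not overlap over the 18 libraries. *Htr1d* lay above *Htr3b* in 16 libraries and *Htr3b* above *Htr7* in 14. *Htr4* lay above *Htr1f* in 18 of 18, although their ranges overlapped. *Htr7* exceeded *Htr1b* in 11 libraries, *Htr1a* exceeded *Htr4* in 11, and *Htr1f* exceeded *Htr5a* in 8, so these 3 pairs of neighbours did not differ beyond their spread. The order was the same by median and in the sham mice alone.

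**Figure D1:**
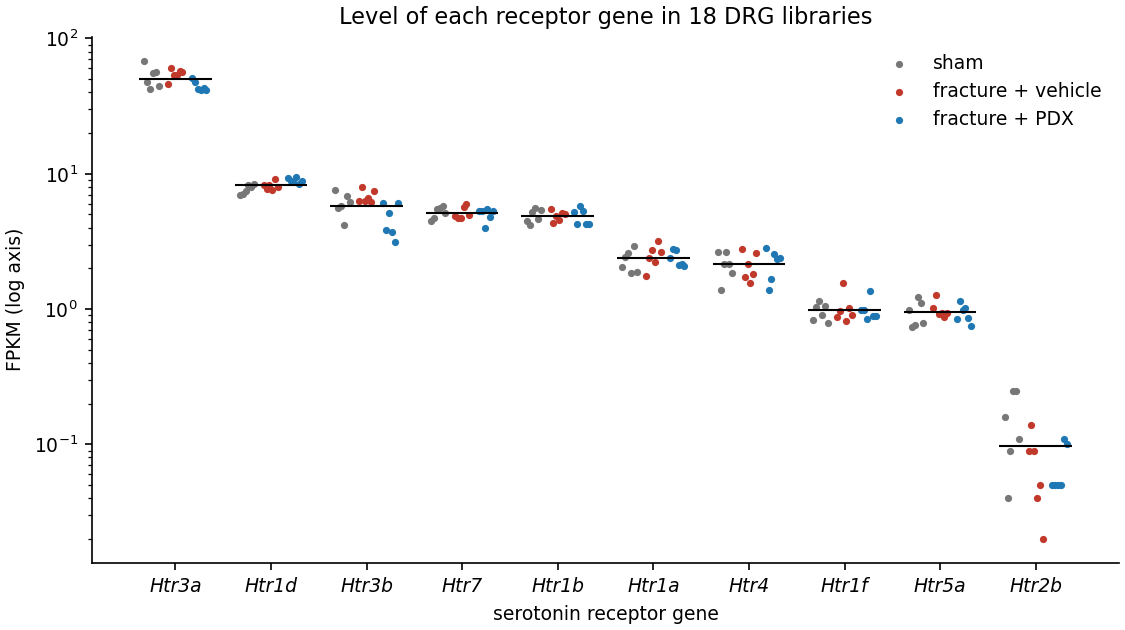
FPKM of the 10 receptor genes (log axis) in 18 DRG libraries, 1 point per library, coloured by group, with a black line at the mean. *Htr3a* lies above all other genes at a mean of 50.5 FPKM, and *Htr2b* lies lowest at 0.0967 FPKM.

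The main comparison was that of PDX with vehicle after fracture. Counts were fitted with edgeR's quasi-likelihood test with sex as a covariate, with Benjamini-Hochberg adjustment over every tested gene. Calls are those of edgeR unless another tool is named. At an adjusted p under 0.05, 0 of the 8 tested members apart from *Htr3a* and 0 of 20562 tested genes (0.0%) were called, with a lowest adjusted p of 0.671 (edgeR). At an unadjusted p under 0.05 there were 1113 genes (5.41%), and DESeq2 called 21 genes, and none of the 9 members apart from *Htr3a* was among them. The groups did not overlap in 57 genes (0.277%), 25 of them lower with PDX (0.122%).

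Both channel subunit genes had a lower mean with PDX. *Htr3a* (ENSMUSG00000032269, chr9:48899213-48911099) had a lowest, median and highest value of 107, 127 and 138 CPM in fracture mice and of 93.6, 99.9 and 118 CPM in PDX mice. The groups overlapped, since the lowest fracture mouse, male 1, lay below PDX males 1 and 2, and 4 of 6 PDX mice had less than any fracture mouse. The means were 126 ± 10.4 and 103 ± 9.40 CPM (SD, n = 6 each), a log2 fold change of -0.29 (standard error, SE, 0.06).

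*Htr3b* (ENSMUSG00000008590, chr9:48935008-48964990), the gene of the partner subunit, ranged from 16.7 to 21.1 CPM in fracture mice with a median of 17.2. In PDX mice it ranged from 8.54 to 16.1 CPM with a median of 12.2. The highest PDX mouse lay below the lowest fracture mouse, and *Htr3b* was the 1 member whose groups did not overlap. The means were 18.1 ± 1.86 and 12.5 ± 3.26 CPM (SD, n = 6 each). The log2 fold change was -0.54 (SE 0.15, unadjusted p = 0.0043, adjusted p = 0.811, edgeR), and DESeq2 gave an adjusted p of 0.0857. An exact permutation test (two-sided, on log2 CPM) gave p = 0.00216, the smallest value that 6 against 6 mice allow. *Htr3b* therefore did not pass the test over all genes, although its groups were separate.

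Within the sexes, the difference of *Htr3b* in mean log2 CPM was -0.44 in males and -0.70 in females, whose direction the separation of all 12 mice already fixes. For *Htr3a* the difference was -0.17 in males and -0.40 in females. The difference between the sexes was not past the threshold for *Htr3b* (interaction -0.22, SE 0.31, adjusted p = 0.998, edgeR), and for *Htr3a* the fitted interaction was -0.23 (SE 0.12).

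**Figure D2:**
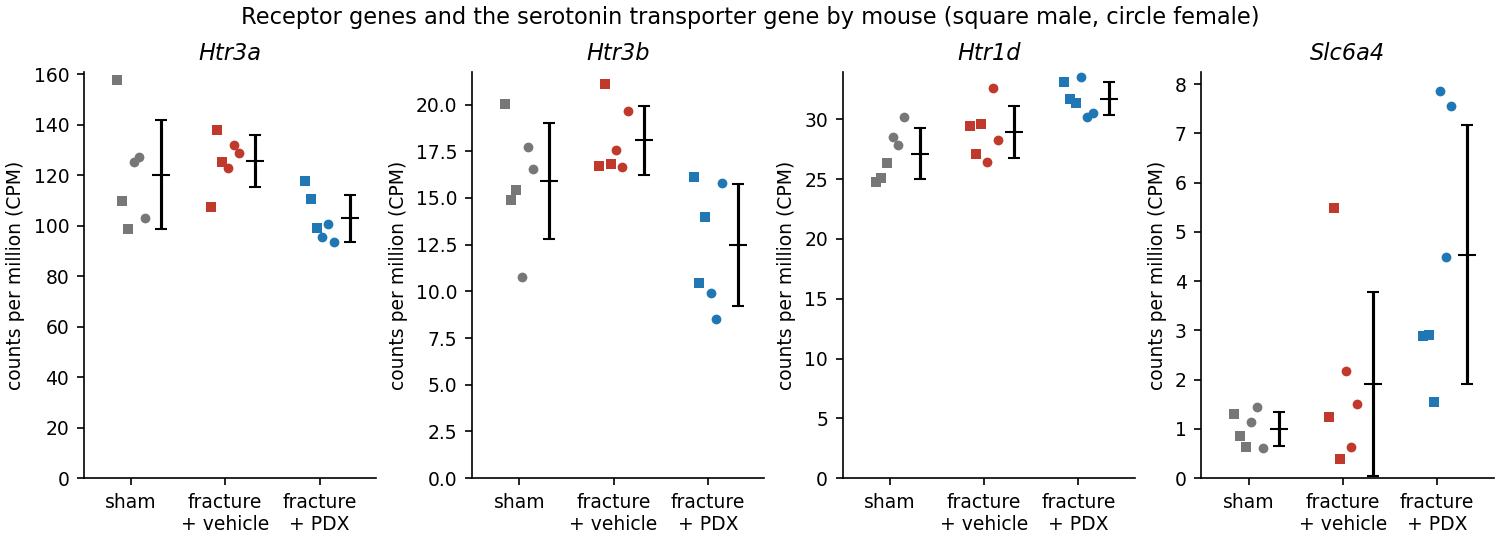
CPM of *Htr3a*, *Htr3b*, *Htr1d* and *Slc6a4*, 1 point per mouse (squares males, circles females), with mean and SD of the 6 mice of a group. All 6 PDX mice lie below every fracture mouse for *Htr3b*, 5 of 6 lie above every sham mouse for *Htr1d*, and 6 of 6 lie above every sham mouse for *Slc6a4*.

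None of the 7 tested members that encode G protein-coupled receptors had a fitted decrease as large as that of *Htr3b*. The family was selected on *Htr3a* in this comparison, so its decrease is left out here. Beside *Htr3b*, *Htr1d* was the other of the 8 tested members apart from *Htr3a* with an unadjusted p under 0.05, and it was higher with PDX. It ranged from 26.5 to 32.7 CPM with a median of 28.9 in fracture mice and from 30.2 to 33.5 CPM with a median of 31.5 in PDX mice. The groups overlapped, and 2 of 6 PDX mice lay above every fracture mouse. The log2 fold change was 0.13 (SE 0.05, unadjusted p = 0.0261, adjusted p = 0.887, edgeR), and the exact permutation test gave p = 0.0303.

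The other tested members lay close to 0. The log2 fold change was -0.07 for *Htr1a* (SE 0.13), -0.02 for *Htr1b* (0.09) and -0.02 for *Htr1f* (0.18) among the Gi/o-coupled receptor genes. It was 0.06 for *Htr4* (SE 0.19) and -0.03 for *Htr7* (0.08), both Gs-coupled, and -0.07 for *Htr5a* (0.11). Their adjusted p-values lay between 0.987 and 0.997 (edgeR). *Htr2b* was too low to be tested, with medians of 13 counts in fracture and 9.5 counts in PDX mice. Over the 9 tested members, including *Htr3a* on which the family was selected, the median log2 fold change was -0.03, beside 0.00 over all genes.

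Lists of marker genes of other cell types are given for the same 2 groups. None of their genes was called and the ranges of the groups overlapped, and their part in the differences of *Htr3a* and *Htr3b* was not tested. Of 12 neutrophil granule genes 12 were higher with PDX (median log2 fold change 1.13), 10 of them at an unadjusted p under 0.05 (beside 5.41% of all genes), with a mean log2 CPM between 2.12 and 3.24 in fracture and between 1.96 and 4.55 in PDX mice. Of 12 skeletal muscle genes 12 were lower (median -1.81, 0 at an unadjusted p under 0.05), from between 1.93 and 6.18 to between 0.29 and 5.25. Markers of axonal injury in neurons were higher in 9 of 9 (median 0.55, 1 at an unadjusted p under 0.05), from between 3.47 and 5.26 to between 3.75 and 5.53. Of 8 macrophage genes 8 were higher (median 0.25, 2 at an unadjusted p under 0.05), from between 2.68 and 3.11 to between 2.88 and 3.40. Among the cells that carry serotonin, platelet genes were higher in 6 of 8 (median 0.37, 2 at an unadjusted p under 0.05) and mast cell genes in 7 of 8 (median 0.25, 1 at that p). Erythroid genes were higher in 7 of 7 (median 0.28) and vascular smooth muscle genes in 0 of 8 (median -0.08), both with 0 at that p. Among the lists of neuron types, 1 of 9 pruriceptor genes was higher (median -0.16, 2 at an unadjusted p under 0.05), as were 2 of 10 genes of myelinated afferents (median -0.03, 0 at that p). Of 8 nonpeptidergic nociceptor genes 5 were higher (median 0.02, 1 at that p). Of 8 peptidergic nociceptor genes 2 were higher (median -0.05, 0 at that p), although their mean log2 CPM was 7.44 in fracture and 7.51 in PDX mice. The mean log2 CPM of the pruriceptor genes lay between 4.17 and 4.43 in fracture and between 4.06 and 4.42 in PDX mice. The placental genes were lower in 8 of 8 (median -0.56, 0 at that p). The 12 pan-neuronal genes had a median log2 fold change of 0.015, with 0 at that p. Relative to the mean of these neuronal genes in the same library, *Htr3b* differed with PDX by -0.58 on the log2 scale (exact permutation test, p = 0.00433), *Htr1d* was higher by 0.13 (p = 0.0195, exact permutation test) and the difference of *Htr3a* was -0.30. In bulk ganglia, fewer cells of a type and less RNA per cell cannot be told apart.

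**Figure D3:**
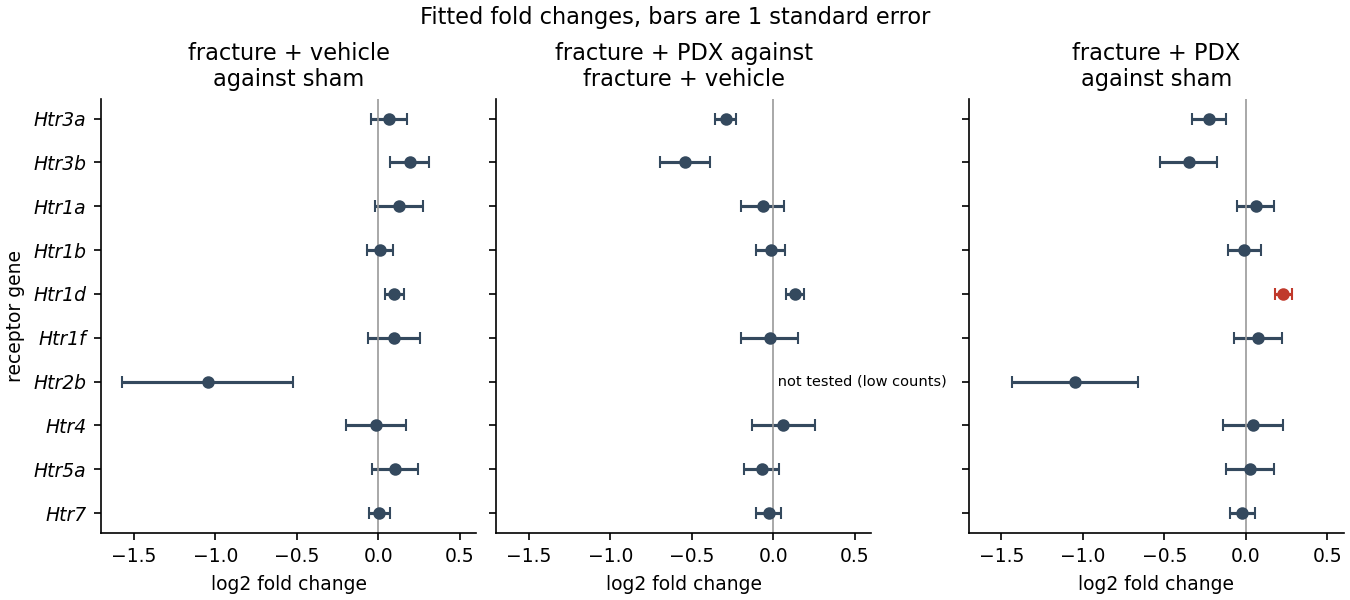
Fitted log2 fold change of each receptor gene in the 3 comparisons between groups, with bars of 1 standard error and *Htr1d* against sham in red as the 1 call at an adjusted p under 0.05. With PDX against vehicle, *Htr3a* (-0.29), on which the family was selected, and *Htr3b* (-0.54) lie lowest, and the other tested genes lie between -0.07 and 0.13.

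Apart from *Htr3a*, which is only described here, fracture itself changed no member past the threshold. Between fracture and sham mice, 0 of the 9 members apart from *Htr3a* were called, while 603 of 20659 genes (2.92%) were. Of the 9, 0 had an unadjusted p under 0.05, beside 18.5% of all genes. DESeq2 called 1476 genes, and none of the 9 members apart from *Htr3a*. *Htr3a* ranged from 98.5 to 158 CPM in sham mice with a median of 117, which spans the whole range of the fracture mice. Its log2 fold change was 0.07 (SE 0.11). *Htr3b* ranged from 10.8 to 20.0 CPM in sham mice with a median of 15.98, and 1 fracture mouse lay above every sham mouse (log2 fold change 0.19, SE 0.12, adjusted p = 0.45, edgeR). *Htr1d* differed by 0.10 (SE 0.06, adjusted p = 0.394, edgeR).

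The remaining members lay within 0.13 of 0 with 1 exception. *Htr2b* (ENSMUSG00000026228, chr1:86099026-86111970) had a lowest, median and highest count of 8, 22 and 47 in sham mice and of 5, 13 and 23 in fracture mice. The groups overlapped, and the log2 fold change was -1.05 (SE 0.52, adjusted p = 0.308, edgeR). Within the sexes, the difference of *Htr2b* in mean log2 CPM had opposite signs. It was 0.259 in males, whose values overlapped, and -2.004 in females, whose values did not. Whether the sexes differed in this comparison was not tested. The placental genes were lower after fracture in 8 of 8 (2 called). Fibroblast genes were higher in 0 of 8 (1 called lower), endothelial genes in 2 of 8 (2 called lower) and macrophage genes in 0 of 8 (2 called lower). Mast cell genes were higher in 0 of 8 (1 called lower), and skeletal muscle genes went the other way, with 12 of 12 higher (0 called). The part of these lists in the values of *Htr2b* was not tested. Over the 10 members, 8 were higher after fracture, with a median log2 fold change of 0.08 beside 0.00 over all genes and 0.13 over the pan-neuronal genes, of which 12 of 12 were higher and 4 were called.

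Against sham, *Htr1d* was the member that rose in the PDX mice. This comparison shares the PDX mice with that against vehicle, and the sham mice with that of fracture. Of the 9 members apart from *Htr3a* 1 was called, beside 925 of 20574 genes (4.5%), of which 447 were higher (2.17%). *Htr1d* (ENSMUSG00000070687, chr4:136423524-136444398) ranged from 24.8 to 30.2 CPM in sham mice with a median of 27.1. In the PDX mice 5 of 6 lay above every sham mouse, and only PDX female 2 lay just below sham female 3. The means were 27.1 ± 2.11 and 31.7 ± 1.35 CPM (SD, n = 6 each), a log2 fold change of 0.23 (SE 0.05, adjusted p = 0.0228, edgeR; exact permutation test, p = 0.00433). The difference was 0.34 among males and 0.12 among females.

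The call for *Htr1d* was close to the threshold. It was lost without 7 of the 12 libraries, each left out alone (sham males 2 and 3, sham female 2, PDX males 1, 2 and 3 and PDX female 1), with adjusted p-values between 0.0501 and 0.06 (edgeR), and with the replicate number as a block (adjusted p = 0.0791, edgeR). It held with DESeq2 (adjusted p = 0.00186), with all 18 libraries in one fit (adjusted p = 0.0178, edgeR) and with both FPKM scales (adjusted p = 0.0394 and 0.0391, limma). The pan-neuronal genes were higher in 12 of 12 (4 called) in the same comparison, and the placental genes lower in 8 of 8 (8 called). Relative to the mean of the pan-neuronal genes, *Htr1d* differed by 0.09 (exact permutation test, p = 0.0736). The part of the placental genes was not tested.

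The channel genes were also lower in PDX than in sham mice, without separation of the groups. *Htr3a* differed by -0.23 (SE 0.11), with 2 of 6 PDX mice below every sham mouse. *Htr3b* differed by -0.35 (SE 0.18, adjusted p = 0.332, edgeR), with 3 of 6 below every sham mouse, and relative to the pan-neuronal genes by -0.50 (exact permutation test, p = 0.039). *Htr2b* had a lowest, median and highest count of 7, 9.5 and 20 in PDX mice (log2 fold change -1.05 against sham, SE 0.39, unadjusted p = 0.0171, adjusted p = 0.161, edgeR). The other members lay between -0.02 and 0.07. Over all 10 the median log2 fold change was 0.01, beside 0.00 over all genes, and 5 of 10 were higher.

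No relation between *Htr3a* and *Htr3b* was detected among mice of the same group and sex. After the mean of each group and sex was subtracted from log2 CPM, Pearson's r over 18 libraries was 0.202 (permutation test within group and sex, p = 0.449, adjusted p = 0.747 over 9 relations) and Spearman's rho was 0.226 (permutation p = 0.441, adjusted p = 0.661). When the 2 libraries with the most extreme *Htr3a* deviations were left out, r was 0.003. The ratio of the FPKM of *Htr3b* to that of *Htr3a* in the same library had medians of 11.9%, 12.8% and 10.4% in sham, fracture and PDX mice, and the ranges overlapped, from 7.44% to 13.9%, from 10.9% to 13.4% and from 7.32% to 14.6%.

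No member had an adjusted p under 0.05 with *Htr3a* when mice were exchanged within group and sex. The highest values were those of *Htr2b* and *Htr5a*. For *Htr2b*, r was 0.628 (permutation test, p = 0.0796, adjusted 0.358) and rho was 0.643 (permutation test, p = 0.0215, adjusted 0.193), with r = 0.643 when the same 2 libraries were left out. For *Htr5a*, r was 0.573 (permutation test, p = 0.055, adjusted 0.358) and rho was 0.544 (permutation test, p = 0.0763, adjusted 0.343), with r = 0.485 when they were left out. The result depends on how mice are exchanged: in a permutation test over all 18 deviations, a choice added after seeing the data, the adjusted p for r was 0.047 for *Htr2b* and 0.0508 for *Htr5a*. On the log2(FPKM + 0.1) scale, r for *Htr2b* was 0.695 (permutation test within group and sex, p = 0.043, adjusted 0.229). The values of *Htr2b* rest on between 5 and 47 counts per library, so its relation with *Htr3a* is uncertain. Over 15674 genes, the 5 most like *Htr3a* by these deviations were *Smim10l2a* (r = 0.928), *Panx1* (0.901), *Arl15* (0.886), *Slc19a1* (0.881) and *Rprm* (0.877). *Htr3b* stood at place 4532. Those most like *Htr3b* were *Slc35b2* (r = 0.895), *Ppic* (0.890), *Bmp4* (0.879), *A830082K12Rik* (0.878) and *C1qtnf3* (0.848). Both lists hold the highest of 15674 correlations over 18 libraries. They were not tested, and values picked in this way are high by selection alone.

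**Figure D4:**
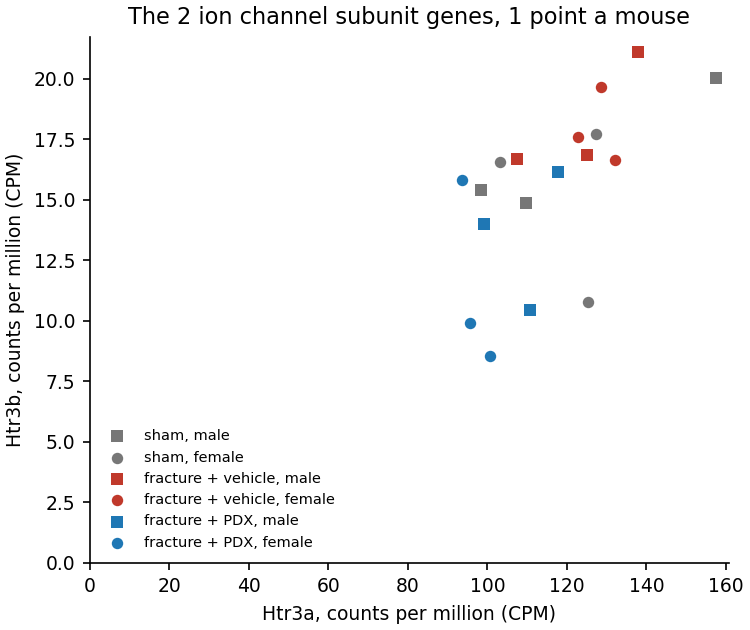
CPM of *Htr3b* against *Htr3a*, 1 point per mouse, coloured by group with squares for males and circles for females. The PDX mice lie at 118 CPM or less of *Htr3a* and at 16.1 CPM or less of *Htr3b*, and within groups and sexes the points show little common order (r = 0.202).

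No receptor gene differed between the sexes past the threshold. Over all 18 libraries with group as a covariate, 0 of 10 members were called between females and males, beside 61 of 20527 genes (0.297%; 2127 or 10.4% at an unadjusted p under 0.05, 324 with DESeq2). *Htr7* had the lowest p, with 20.2 ± 1.39 CPM in females and 18.3 ± 1.78 CPM in males (SD, n = 9 each; log2 difference 0.14, SE 0.06, adjusted p = 0.393, edgeR). *Htr3a* had 114 ± 15.7 and 118 ± 19.3 CPM in females and males (log2 difference -0.06, SE 0.08, adjusted p = 0.876, edgeR). For the interaction of sex with PDX, 0 of the 8 tested members apart from *Htr3a* were called, and 1 of 20562 genes was (0.00486%; 851 or 4.14% at an unadjusted p under 0.05, 9 with DESeq2). *Htr1a* had an unadjusted p under 0.05 there, with a difference of 0.23 in males and -0.33 in females (interaction -0.56, SE 0.22, unadjusted p = 0.0279, adjusted p = 0.998, edgeR).

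Of the 4 further serotonin receptor genes, *Htr5b* (3.00 ± 0.455 FPKM, SD, n = 18) had a mean between those of *Htr1b* and *Htr1a*. The mean of *Htr2a* (1.65 ± 0.290 FPKM) lay between those of *Htr4* and *Htr1f*. *Htr6* (0.189 ± 0.0621 FPKM) and *Htr2c* (0.0367 ± 0.0200 FPKM) were low. None of the 4 was called in any of the 3 comparisons between groups, and 0 had an unadjusted p under 0.05 (edgeR). With PDX against vehicle, the log2 fold change was -0.66 for *Htr2c* (SE 0.50, adjusted p = 0.949, edgeR), a larger fitted decrease than those of the channel genes but with a wider error at 0.466 and 0.306 CPM. It was -0.06 for *Htr2a* (SE 0.13), 0.01 for *Htr5b* (SE 0.11) and 0.04 for *Htr6* (SE 0.30).

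The serotonin transporter gene *Slc6a4*, whose product takes serotonin back into cells, rose in the PDX mice against sham. It ranged from 0.621 to 1.45 CPM in sham mice (median 0.997), from 0.399 to 5.49 CPM in fracture mice (median 1.38) and from 1.54 to 7.85 CPM in PDX mice (median 3.70). All 6 PDX mice lay above every sham mouse, as in 1.49% of tested genes. The fracture mice overlapped both groups, with male 2 far above the other 5, and PDX females 1 and 3 lay above every fracture mouse. The log2 fold change against sham was 2.02 (SE 0.32, adjusted p = 0.00495, edgeR; exact permutation test, p = 0.00216). Against vehicle it was 1.13 (SE 0.69, adjusted p = 0.917, edgeR; exact permutation test, p = 0.039), and for fracture against sham it was 0.89 (SE 0.56, adjusted p = 0.453, edgeR; exact permutation test, p = 0.439). Without fracture male 2, these became 1.93 and 0.17, with adjusted p-values of 0.619 and 0.882 (edgeR).

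Values of other lists moved beside *Slc6a4*, and their part was not tested. The axonal injury genes had a mean log2 CPM between 2.52 and 3.06 in sham mice, below all fracture and PDX mice. The platelet genes, of a cell type rich in this transporter, lay between 0.17 and 1.23 in sham, between -0.41 and 1.01 in fracture and between 0.02 and 1.84 in PDX mice. Of the 15 tested genes of serotonin synthesis, transport and breakdown, *Slc6a4* was the 1 call of edgeR against sham (beside 4.5% of all genes). With edgeR, 0 were called after fracture (beside 2.92%) or with PDX against vehicle (beside 0.0%). DESeq2 called 1 higher and 1 lower against sham, where it called 1580 genes in all, and 0 in the other comparisons. The synthesizing enzymes *Tph1* (0.0600 ± 0.0291 FPKM) and *Tph2* (0.298 ± 0.0933 FPKM) were low, and *Maoa*, which degrades serotonin, had 14.5 ± 0.692 FPKM.

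Of the 28 G protein and effector genes downstream of the receptors, 0 were called with PDX against vehicle by edgeR or DESeq2, and 1 had an unadjusted p under 0.05 (beside 5.41%). After fracture 0 were called with edgeR (beside 2.92% of all genes) and 2 with DESeq2, and 11 had an unadjusted p under 0.05 (beside 18.5%). In PDX mice against sham 2 were called with edgeR (beside 4.5%), 1 in each direction, and 7 had an unadjusted p under 0.05 (beside 3695 of the 20574 tested genes). DESeq2 called 2 higher and 1 lower there. *Adcy7*, an adenylyl cyclase, fell from 22.2 ± 3.09 to 16.7 ± 1.19 CPM (log2 fold change -0.41, SE 0.09, adjusted p = 0.0168, edgeR), and *Prkacb*, a catalytic subunit of protein kinase A, rose by 0.11 (SE 0.03, adjusted p = 0.0455, edgeR). In the same comparison, endothelial genes were higher in 0 of 8 (2 called lower with edgeR), fibroblast genes in 0 of 8 (0 called with edgeR) and macrophage genes in 4 of 8 (1 called lower with edgeR). DESeq2 called 2 endothelial, 3 fibroblast and 2 macrophage genes lower. The mean log2 CPM of the endothelial genes lay between 3.94 and 4.32 in sham and between 3.80 and 4.01 in PDX mice. The placental genes were lower in 8 of 8 (8 called with edgeR), with a mean log2 CPM between 3.69 and 5.32 in sham and between 0.85 and 3.36 in PDX mice. The part of these lists in the fall of *Adcy7* was not tested. Of 11 genes of receptor partners, edgeR called 1 higher after fracture and 2 higher in PDX mice against sham, beside the same 2.92% and 4.5% of all genes. At an unadjusted p under 0.05 (edgeR) there were 5 and 6 (beside 18.5% and the same 3695 genes). DESeq2 called 2 higher after fracture, and 4 higher and 1 lower against sham, beside 1476 and 1580 genes in all. *Arrb1*, the gene of a β-arrestin that uncouples receptors from G proteins, rose in both, by 0.13 (SE 0.03, adjusted p = 0.0484, edgeR) and 0.17 (SE 0.03, adjusted p = 0.00993, edgeR). *S100a10*, whose product binds several serotonin receptors, rose by 0.18 against sham (SE 0.04, adjusted p = 0.0379, edgeR).

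The other channels of the *Htr3a* superfamily gave 1 call after fracture and 2 in PDX mice against sham among 30 genes, of which 24 and 22 were tested, beside 2.92% and 4.5% of all genes. At an unadjusted p under 0.05 (edgeR) there were 8 and 4, beside 18.5% of all genes after fracture and 3695 of the 20574 tested genes against sham. DESeq2 called 2 in each comparison, all higher. *Gabra2*, of a GABA-A receptor subunit, rose in both, by 0.19 (SE 0.04, adjusted p = 0.0328, edgeR) and 0.17 (SE 0.04, adjusted p = 0.0455, edgeR), and *Gabrg1* rose by 0.26 against sham (SE 0.07, adjusted p = 0.0418, edgeR). *Gnaq*, the Gq subunit gene, came next after fracture with 0.12 (SE 0.03, adjusted p = 0.0528, edgeR). It passed the threshold with DESeq2 (adjusted p = 0.0166), with upper-quartile scaling (adjusted p = 0.0456, edgeR) and without fracture male 2 or fracture female 1 (adjusted p = 0.0488 and 0.0449, edgeR). With PDX against vehicle, 0 of the 81 tested genes of these lists were called with edgeR and 0 with DESeq2. Among the lowest p-values were those of *Arrb2* (log2 fold change 0.17, SE 0.05, adjusted p = 0.811) and *Aldh2* (0.10, SE 0.04, adjusted p = 0.887), both from edgeR. The median log2 fold change of the lists with PDX against vehicle lay between -0.06 and 0.015, beside 0.00 over all genes. The 12 pan-neuronal genes had a median log2 fold change of 0.13 after fracture and 0.14 in PDX mice against sham, and their part in the rises of *Arrb1*, *S100a10*, *Prkacb*, *Gabra2* and *Gabrg1* and in the value of *Gnaq* was not tested. Of the calls named against sham, those of *Slc6a4*, *Arrb1* and *Adcy7* held without each library in turn, while those of *S100a10*, *Gabrg1*, *Gabra2* and *Prkacb* were lost without 9 or, for *Prkacb*, 10 of the 12 libraries, each left out alone, with adjusted p-values of up to 0.112 (edgeR). These 4 calls were also lost with both FPKM scales. The replicate block ended those of *S100a10*, *Gabra2* and *Prkacb*, and leaving out the sex covariate those of *Gabrg1*, *Gabra2* and *Prkacb*. Those of *Gabra2* and *Prkacb* were lost without the filter on low counts too, and that of *Prkacb* with all 18 libraries in one fit. After fracture the call of *Gabra2* was lost without 9 libraries and that of *Arrb1* without 10, with adjusted p-values of up to 0.11 (edgeR), and both were lost without the sex covariate and with the replicate block. The call of *Arrb1* after fracture was lost with both FPKM scales and without the filter on low counts as well.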

How the data were processed

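Poly(A)-selected, strand-specific libraries from 18 mice were used. The authors deposited raw counts per gene, without normalization, and FPKM values, which the authors had scaled by transcript length and mapped fragments. The submitters' processing notes name cutadapt 1.10, FastQC, HISAT2, StringTie and mm10. Table columns named as controls were read as the sham samples.

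The receptor genes and all lists were chosen with earlier results of these data known, and the placental list after seeing these. The counts were fitted by edgeR 4.0.16 in R 4.3.3 (filterByExpr, minimum count 10 and minimum total count 15; TMM; robust quasi-likelihood; 12 libraries per comparison of groups). DESeq2 1.42.0, limma 3.58.1 on log2(FPKM + 1) and log2(FPKM + 0.1), upper-quartile scaling, other filters, other designs and leaving out each library were alternatives. The fits were tested on simulated data. Log2 CPM used a prior count of 2. Exact permutation tests were two-sided, and correlations used 100000 permutations of mice within group and sex. Permutations over all 18 deviations and levels relative to pan-neuronal genes were added after seeing the data.

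All 10 receptor genes were named. From the pathway lists, the 3 genes with the smallest p in each comparison were named by rule, of which 1 is not reported here, and other genes called in PDX against sham, the second receptors, *Tph1*, *Tph2* and *Maoa* after their values were seen. The deviations of mice of the same number correlated with r between -0.08 and 0.13 in the 3 pairs of groups, and 2 pairs of mice were over 0.1. The correlation was not over 0.1 in every pair, so the numbers were not taken as pairs. The labels do not say that the mice came from separate cages or litters, and p-values measure the spread between these mice.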

Additional observations from a re-analysis of the deposited data

Results flagged for a closer look

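In 3 of the 30 groups of 6 mice tested for an outlier, 1 mouse lay far from the other 5 by Dixon's test, and chance alone gives about 1 such group in 20. *Htr1f* had 4.47 CPM in fracture male 3, beside 2.30 to 2.92 CPM in the other fracture mice. *Htr1f* also had 3.88 CPM in PDX female 1, beside 2.47 to 2.88 CPM. *Htr5a* had 7.54 CPM in fracture male 2, beside 5.23 to 6.07 CPM.

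*Htr2b* differed with opposite sign in the sexes between PDX and fracture mice. On the log2 CPM scale the difference was -0.92 in males and 0.96 in females, and the values of the groups overlapped in neither sex. With 3 against 3 mice, 11.2% of the 20562 tested genes did not overlap in males and 10.1% did not in females, and 90 genes (0.438%) overlapped in neither sex with opposite sign. The counts behind these values lay between 5 and 23 per library, and the gene was too low to be tested with the filter on low counts. Without that filter the interaction was 2.24 (standard error 0.92, unadjusted p = 0.0263, adjusted p = 1.0, edgeR).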

How the results depend on the processing

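With DESeq2, 21 genes were called between PDX and fracture, 1476 between fracture and sham, 1580 between PDX and sham, 324 between females and males and 9 in the interaction, against 0, 603, 925, 61 and 1 with edgeR. The replicate block gave 118 and 486 genes for fracture and PDX against sham and 0 for PDX against fracture, with *Htr1d* against sham at an adjusted p of 0.0791. A mouse correlated best with its own number in 4 of 6 pairs of fracture and PDX mice, 3 of 6 of sham and fracture and 1 of 6 of sham and PDX, and the numbers were not taken as pairs. With 1 library left out, the counts ranged from 0 to 1, 213 to 710, 498 to 1008, 25 to 79 and 1 to 2.

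With 1 library left out, the log2 fold change of *Htr3b* with PDX against vehicle ranged from -0.662 to -0.454, with adjusted p-values from 0.469 to 0.997. Its direction could not turn there, since the groups are separate. That of *Htr3a*, on which the family was selected, ranged from -0.344 to -0.266. Against sham, the log2 fold change of *Htr3a* ranged from -0.292 to -0.133 in PDX mice and from 0.0095 to 0.170 in fracture mice. With permutations over all 18 deviations, 1 member (*Htr2b*) had an adjusted p under 0.05 with *Htr3a*, against 0 within group and sex. Members near 0 changed sign. With log2(FPKM + 1) and log2(FPKM + 0.1), fracture against sham gave -0.0015 and -0.0012 for *Htr1b* and -0.0037 and -0.0043 for *Htr7*. Without the 2 farthest libraries, r with *Htr3a* was 0.341 for *Htr1f* and 0.335 for *Htr7*. With 1 library left out, the log2 fold change of PDX against fracture ranged from -0.168 to 0.030 (*Htr1a*), -0.070 to 0.022 (*Htr1b*), -0.149 to 0.138 (*Htr1f*), -0.061 to 0.172 (*Htr4*) and -0.069 to 0.020 (*Htr7*). For fracture against sham it ranged from -0.043 to 0.043 (*Htr1b*), -0.050 to 0.154 (*Htr1f*), -0.128 to 0.066 (*Htr4*) and -0.030 to 0.046 (*Htr7*). For PDX against sham it ranged from -0.070 to 0.038 (*Htr1b*), -0.045 to 0.136 (*Htr1f*), -0.093 to 0.151 (*Htr4*), -0.053 to 0.107 (*Htr5a*) and -0.062 to 0.028 (*Htr7*). Between females and males it ranged from -0.094 to 0.0083 (*Htr3a*), -0.034 to 0.037 (*Htr1b*), -0.0016 to 0.146 (*Htr4*) and -0.098 to 0.013 (*Htr5a*). The causes were not tested. The counts of *Htr2b* limit what could be detected for this gene.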
